A study of Mus musculus with 80 samples.

Results

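The first 3 h of enforced wakefulness were examined in the mouse heart by setting the 8 hearts of animals kept awake for 3 h against the 10 hearts of animals killed at lights-on, 18 of the 80 arrays of the series. The members of the comparison were taken from the labels, and it was described across all 18820 genes to which exactly 1 symbol could be given. All animals were male C57BL/6J mice (spelt C57BL\6 in the labels) of about 10 weeks, held in 12 h light and 12 h dark and fed only at night during acclimation, so night feeding was shared by every group. Baseline mice were undisturbed and killed at lights-on (0 h). Sleep deprivation started at lights-on and was kept up by gentle handling, and a further 9 mice with undisturbed opportunity to sleep were killed at the same 3 h. Sleep was not recorded by EEG, so brief sleep in the deprived and activity in the sleeping animals are possible. Each animal gave 1 heart, 1 RNA extract and 1 Affymetrix Mouse Gene 1.0 ST array, and p-values therefore measure the spread between animals. Wakefulness, time of day and hours since food all differ between the deprived animals and baseline and cannot be told apart in that comparison, whereas the sleeping animals share the clock time of the deprived.

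The tissue was heart by its markers, since the 9 measured ventricular cardiomyocyte markers averaged between 12.8 and 12.9 on the log2 scale in every baseline and deprived array. The RMA values ranged little between arrays (medians 5.25 to 5.34 over the 18), and all pairs of the 80 arrays correlated between 0.978 and 0.995. The array numbers in the titles fall into runs. All 10 baseline arrays and deprived replicates 1 to 4 share 1 run, here called the baseline run, while deprived replicates 5 to 8 belong to the next, later run. What the runs represent is not stated by the submitters. Some arrays stood apart. Baseline replicate 2 had a mean of 8.45 over 12 skeletal muscle markers, against 4.87 to 6.45 in the other baseline arrays. Deprived replicate 5 had the lowest mean correlation with the other arrays (0.984). Deprived replicate 8 had a liver marker mean of 7.59, against 5.11 to 5.94 in the other deprived and 5.09 to 7.85 in the baseline arrays, and its clock genes lay closer to the animals deprived for 6 h, as described with the clock genes. Without these 3 arrays 304 genes differed, and 253 of the 458 genes called with them were kept. In whole heart, fewer cells of a type and less RNA per cell cannot be told apart.

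As background, wakefulness prolonged into the rest phase activates the adrenal axis, and corticosterone acts on heart cells through the glucocorticoid receptor, a transcription factor that binds paired hexamers in DNA. A load of unfolded protein in the endoplasmic reticulum (ER) is met by sensors that raise ER chaperones and the machinery that exports damaged protein for degradation, whereas heat shock factors raise the chaperones of the cytosol. The cardiac clock is a feedback loop in which the activators Arntl, Clock and Npas2 drive Per, Cry and Nr1d genes through E-box sequences, and the products of these genes repress the activators. Per genes also respond to glucocorticoids and to immediate signals, and so can move apart from the rest of the loop.

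At a false discovery rate (FDR) of 1%, 458 of 18820 genes (2.43%) differed between the hearts deprived for 3 h and baseline. Of these, 223 (1.18%) were higher and 235 (1.25%) lower. The typical change was modest. The median of the absolute differences was 0.31 log2 units, or 1.24-fold. Changes above 1.5-fold were mostly rises, being 40 of 46 such genes, and all 5 genes above 2-fold rose. The 8 deprived and 10 baseline arrays did not overlap in 56 of the 223 genes that were higher and in 46 of the 235 that were lower, whereas they did not overlap in 0.335% (higher) and 0.26% (lower) of all genes, 0.595% in either direction. In the sleeping animals at 3 h, 42 genes (0.223%) differed from the same baseline arrays, 23 higher (0.122%) and 19 lower (0.101%). Deprived and sleeping animals at 3 h differed in 422 genes (2.24%), of which 230 (1.22%) were higher and 192 (1.02%) lower in the deprived. The comparisons share arrays, so their values are given side by side for each gene. Within the baseline run, where 4 deprived and 10 baseline arrays can be set against each other, 78 genes were higher (0.414%) and 65 lower (0.345%), together 0.76% of genes, and 26.9% of the 458 calls were made there too. With deprived arrays of the later run only, set against the same baseline arrays, 310 genes were higher (1.65%) and 345 lower (1.83%), and 74% of the calls were kept. With the run as a term 357 genes differed, and 70.5% of the calls were kept. The last gene inside the threshold was Slc25a34 (difference 0.21, adjusted p = 0.00995) and the first outside it Trim65 (0.31, adjusted p = 0.0104).

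**Figure D1:**
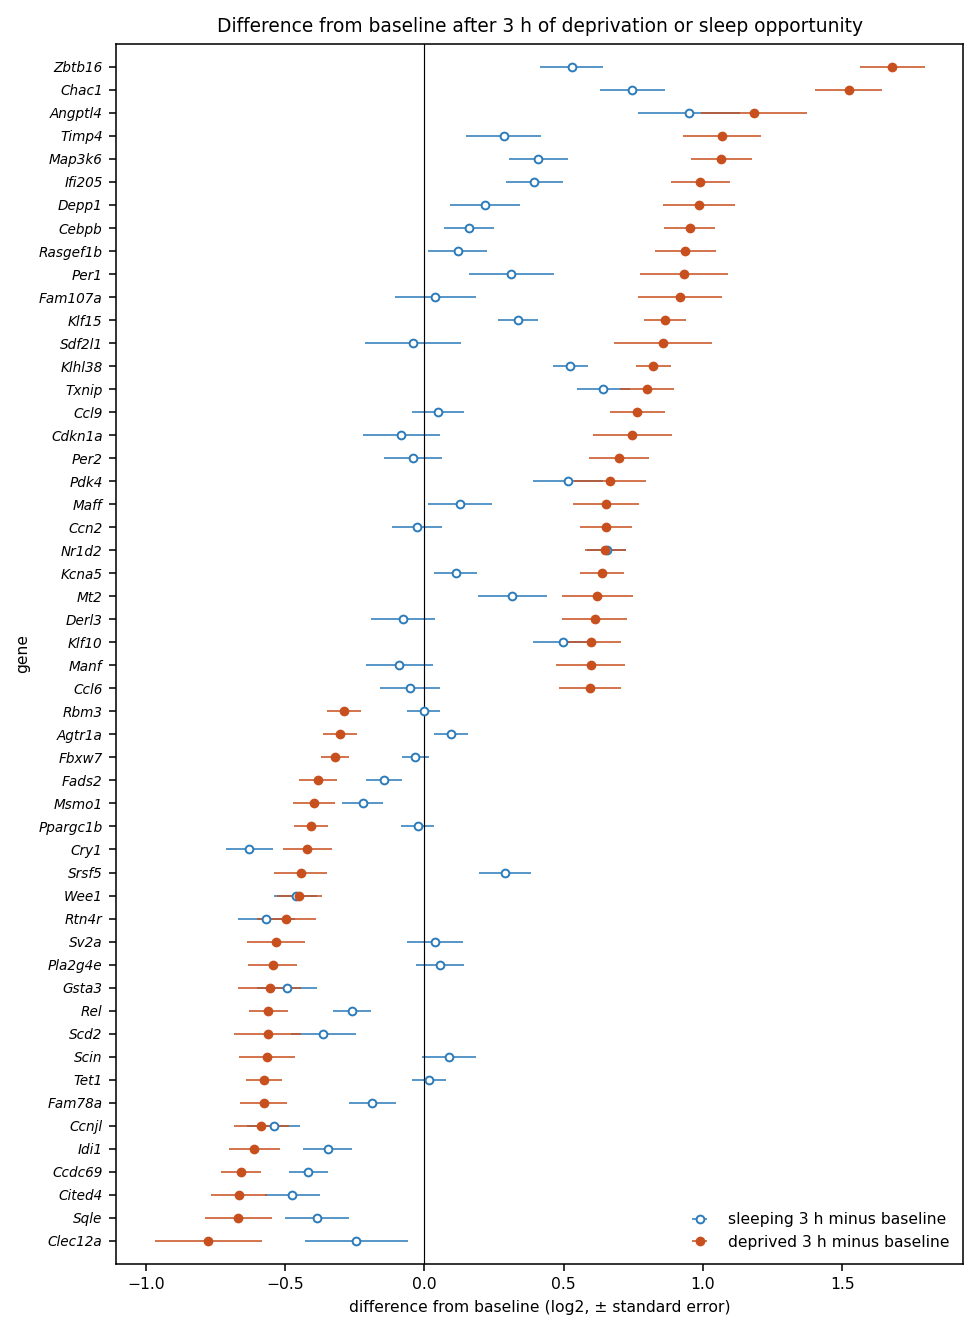
Difference from baseline on the log2 scale (horizontal axis, ± standard error of the fit) for 52 named genes (vertical axis) past 1% FDR in the hearts deprived for 3 h (filled), with the sleeping hearts of the same clock time (open). Zbtb16 is 1.68 higher in the deprived and 0.53 in the sleeping, while Nr1d2 is 0.65 higher in both.

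Known targets of the glucocorticoid receptor were the list with the most rises among the 29 pathway lists. The lists were drawn up with earlier results of these data known, so the ranking is a description and not a test. Of 27 measured members of the receptor list 15 rose and 0 fell (55.6%, against 2.43% of all genes). The list's median difference was 0.34, against 0.00169 over all genes and 0.04 for the same list in the sleeping animals. In the sleeping animals 4 members were also higher than baseline (0.122% of all genes). Against the sleeping animals 10 members were higher in the deprived and 0 lower (1.22% and 1.02% of all genes). The gene with the largest rise of the whole comparison is a member. Zbtb16, a zinc finger repressor of transcription, was measured at 8.64, 8.83 and 9.19 (lowest, median and highest) at baseline and at 10.4, 10.5 and 10.8 in the deprived hearts, with no overlap. Its difference was 1.68 ± 0.12 (SE) or 3.2-fold (adjusted p = 1.47e-18), and the sleeping hearts lay between at 8.85, 9.38 and 9.98. Deprived exceeded sleeping hearts by 1.15 (adjusted p = 1.99e-10).

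Klf15, a transcription factor that adjusts amino acid and lipid use in heart muscle, was at 7.51, 7.72 and 7.92 at baseline and at 8.26, 8.62 and 8.82 after deprivation, again without overlap (difference 0.86 ± 0.075, adjusted p = 1.99e-14). Cebpb, a leucine zipper transcription factor, rose from 6.02, 6.2 and 6.6 to 6.91, 7.2 and 7.59, a difference of 0.95 ± 0.093 (adjusted p = 3.38e-12). In the sleeping hearts Klf15 was 0.34 higher than baseline (adjusted p = 0.00981) and Cebpb 0.16 (adjusted p = 0.437). Cebpb was also higher than in the sleeping animals, by 0.79 (adjusted p = 1.4e-08).

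Fam107a, an actin-binding protein induced by stress hormones in brain, was nearly constant at baseline (5.66, 5.71 and 5.86), and all 8 deprived hearts were above that range (6.24, 6.6 and 7.17). Its difference was 0.92 ± 0.15 (adjusted p = 1.7e-05), whereas the sleeping hearts spread from 5.05 to 6.18 around a mean difference of 0.04. Slc10a6, a transporter of sulphated steroids, rose by 0.73 ± 0.12 (adjusted p = 2.54e-05), with 7 of 8 deprived arrays above all baseline arrays. Further members that rose were Angptl4, Per1, Cdkn1a, Pdk4, Mt2, Cebpd, Sult1a1, Tsc22d3, Klf9 and Errfi1, by 1.18 to 0.33. Tsc22d3 encodes GILZ, which mediates anti-inflammatory actions of glucocorticoids, and was 0.36 higher in the deprived (adjusted p = 0.0052) but at -0.15 in the sleeping hearts. Not every classical target moved, since Fkbp5 differed by 0.05 (adjusted p = 0.924) and Sgk1 by 0.16 (adjusted p = 0.295). Within the baseline run, 6 members passed. Mt2 did not pass without the 3 arrays that stood apart (adjusted p = 0.0229).

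Promoter sequences were read from RefSeq (GRCm38.p6), 250 bases before to 50 after each start, to show what the leading genes carry. The glucocorticoid response element, here GNACA and TGTNC with any 3 bases between them, was searched on both strands and is held by 0.475% of 32851 promoters (0.537% of 27025 genes). It is held by 4 of the 24 list members with a promoter in the table (Fam107a, Slc10a6, Mt1 and Sgk1) and, outside the list, by the named genes Map3k6, Kcna5 and Txnip that rose. Stretches of 3 of them are printed because these genes rose, with the match in capitals.
Fam107a (chr14:8309813-8309922, minus strand): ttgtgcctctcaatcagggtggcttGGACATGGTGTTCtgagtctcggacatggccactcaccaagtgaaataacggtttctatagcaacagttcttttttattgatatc
Slc10a6 (chr5:103629482-103629591, minus strand): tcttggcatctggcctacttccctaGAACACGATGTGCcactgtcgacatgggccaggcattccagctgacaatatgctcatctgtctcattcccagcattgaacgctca
Map3k6 (chr4:133240612-133240721, plus strand): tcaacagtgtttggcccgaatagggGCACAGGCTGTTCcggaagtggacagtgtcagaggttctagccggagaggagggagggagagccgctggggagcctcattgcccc
A match describes the sequence only, and most members of the list that rose have no match in this window. Map3k6, a kinase of the stress-activated MAP kinase cascades, was at 5.43, 5.86 and 6.04 at baseline and at 6.59, 6.85 and 7.21 in the deprived hearts, a difference of 1.07 ± 0.11 (adjusted p = 1.57e-11). The groups did not overlap, and the sleeping hearts were 0.41 above baseline (adjusted p = 0.0409).

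**Figure D2:**
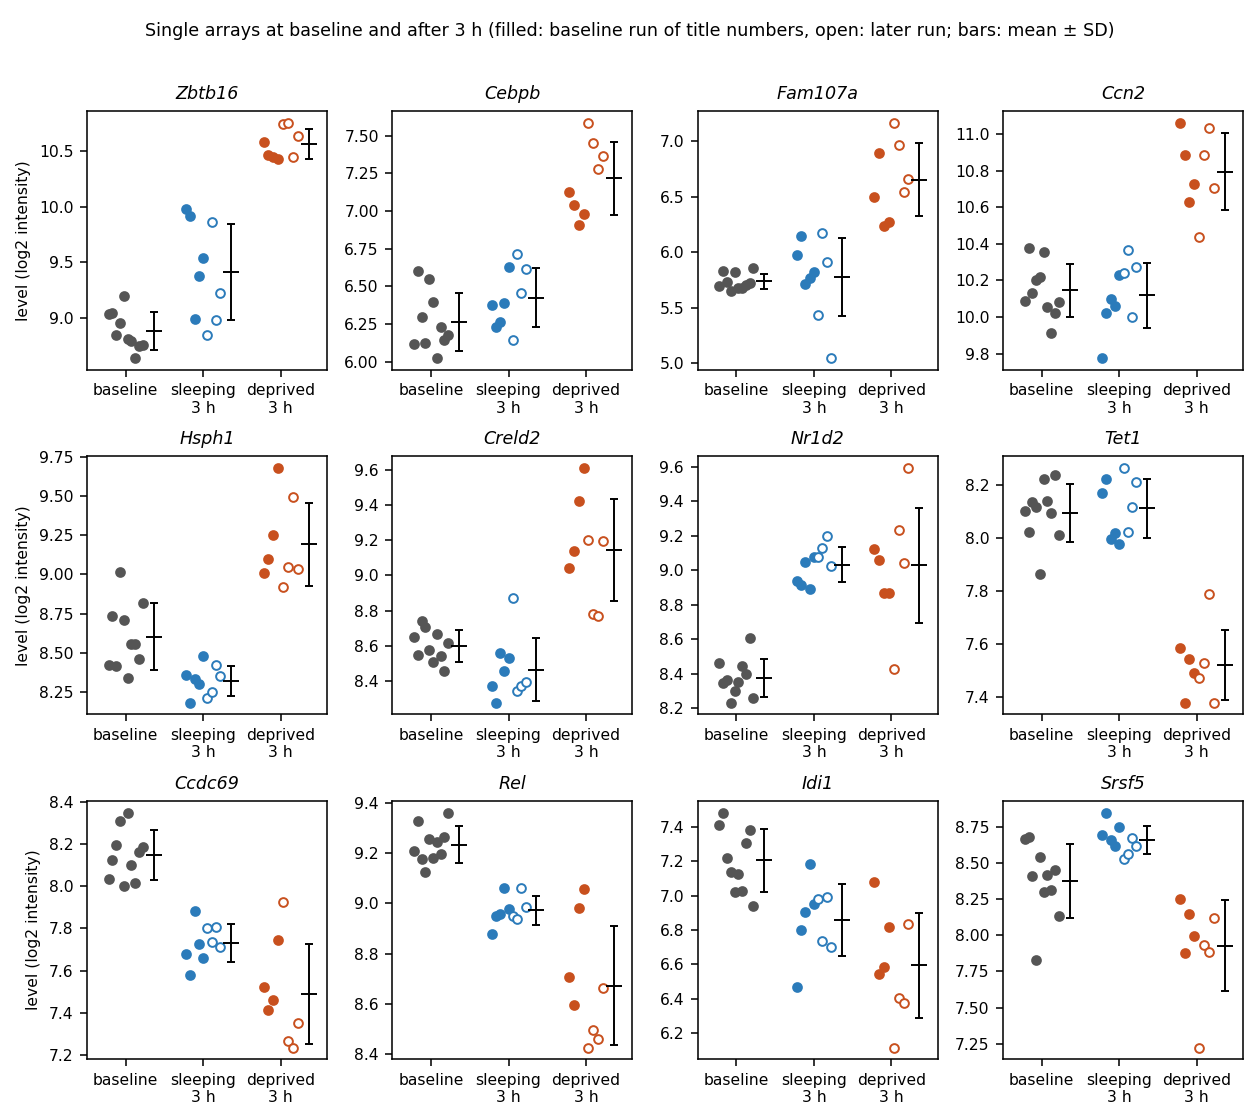
Level in single arrays (log2 intensity, vertical axis) of 12 genes in baseline, sleeping 3 h and deprived 3 h hearts, filled for the baseline run and open for the later run, with mean and SD. All 8 deprived points lie above the 10 baseline points for Zbtb16, Cebpb, Fam107a, Ccn2 and Creld2 and below them for Tet1, Ccdc69 and Rel.

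Some ER chaperones rose in the deprived hearts, whereas none of the list passed in the sleeping ones. Of 20 measured ER chaperones and folding enzymes 4 passed the test, all higher, against 1.18% higher over all genes. A positive difference was found in 16 of 20, against 9556 of all 18820 genes. The list's median was 0.19, against -0.08 in the sleeping hearts. Sdf2l1, a partner of the chaperone Hspa5, was at 7.8, 8 and 8.7 at baseline and at 8.4, 8.98 and 9.9 in the deprived hearts. The groups overlapped, with 5 of 8 deprived arrays above all baseline arrays, and the difference was 0.86 ± 0.18 (adjusted p = 0.000957), against -0.04 in the sleeping hearts. Creld2, a secreted folding factor of the ER, did not overlap between the groups (8.46, 8.6 and 8.74 against 8.77, 9.17 and 9.61) and differed by 0.54 ± 0.094 (adjusted p = 5.74e-05). Manf, a neurotrophic factor retained in the ER, rose by 0.60 ± 0.12 (adjusted p = 0.00107). Hyou1, which resets the nucleotide state of Hspa5, rose by 0.44 ± 0.09 without overlap (adjusted p = 0.000814). For Hspa5 itself, the main ER chaperone, the difference was 0.25 ± 0.08 (adjusted p = 0.0688), with levels of 11.4, 11.5 and 11.7 at baseline and 11.6, 11.7 and 12.2 after deprivation. Against the sleeping animals 8 members of the list were higher in the deprived and 0 lower (1.22% and 1.02% of all genes). The calls of Sdf2l1 and Hyou1 were lost without the 3 arrays that stood apart (adjusted p = 0.0131 and 0.0148). With deprived arrays of the later run only, Sdf2l1, Manf, Creld2 and Hyou1 were at 0.64, 0.42, 0.38 and 0.43 and none passed (adjusted p = 0.0511, 0.0655, 0.026 and 0.0126). All 4 passed with the run as a term, and within the baseline run Sdf2l1 and Creld2 passed.

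Genes for the export of misfolded protein from the ER rose in part. Of 15 measured members 4 were higher and 0 lower (list median 0.07), against 1.18% higher over all genes. Syvn1, the membrane ubiquitin ligase of this route, was at 7.39, 7.76 and 8 at baseline and at 7.94, 8.11 and 8.52 in the deprived hearts, a difference of 0.46 ± 0.083 (adjusted p = 0.000122) with 7 of 8 deprived arrays above all baseline arrays. Derl3, a channel component, rose by 0.61 ± 0.12 (adjusted p = 0.000397), Herpud1, a scaffold of the ligase, by 0.33 ± 0.063 (adjusted p = 0.000395) and Dnajb9, a co-chaperone of Hspa5, by 0.30 ± 0.06 (adjusted p = 0.000495). In the sleeping hearts these 4 genes differed from baseline by -0.13 to 0.10. Without the 3 arrays that stood apart Derl3 and Herpud1 no longer passed (adjusted p = 0.0102 and 0.0324), and with deprived arrays of the later run only Dnajb9 did not (adjusted p = 0.0522). Within the baseline run Dnajb9 passed (adjusted p = 0.00441), whereas Syvn1, Derl3 and Herpud1 did not (adjusted p = 0.024, 0.0746 and 0.0203).

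The ER stress element, CCAAT and CCACG with any 9 bases between them and searched on both strands, is held by 0.119% of all promoters (0.137% of genes). In the lists it is held by 8 of the 18 ER chaperone genes with a promoter in the table, namely Hspa5, Hsp90b1, Calr, Canx, Pdia6, Creld2, Dnajc3 and Ero1b, and by 2 of 13 genes of ER-associated degradation. It is the sequence through which the sensors of unfolded protein are known to act, and is shown in capitals for the 3 of these genes that rose. Creld2 and Derl3 carry it in the reverse orientation.
Creld2 (chr15:88819495-88819604, plus strand): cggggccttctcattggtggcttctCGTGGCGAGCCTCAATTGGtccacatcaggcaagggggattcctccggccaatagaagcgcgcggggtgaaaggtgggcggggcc
Syvn1 (chr19:6046507-6046575, plus strand): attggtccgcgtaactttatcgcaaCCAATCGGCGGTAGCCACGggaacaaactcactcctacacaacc
Derl3 (chr10:75893217-75893326, plus strand): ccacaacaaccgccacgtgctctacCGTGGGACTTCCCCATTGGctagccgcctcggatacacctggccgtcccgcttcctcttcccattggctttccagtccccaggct
Of the 8 chaperone genes with the element only Creld2 passed the test, and the other 3 chaperones that passed have no match in this window or no promoter in the table.

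Sensors of unfolded protein and targets of ATF4 gave 2 rises among 14 measured members and 0 falls (median 0.13, 13 of 14 positive). Over all genes 1.18% rose and 9556 of 18820 were positive. Chac1, an enzyme that degrades glutathione, had the second largest rise of all named genes, from 5.58, 5.74 and 6.13 to 6.96, 7.24 and 7.73 without overlap (1.52 ± 0.12, adjusted p = 3.13e-16). It was also 0.75 higher in the sleeping hearts (adjusted p = 3.72e-05), and deprived exceeded sleeping hearts by 0.78 (adjusted p = 1.27e-05). The other member that passed was Cebpb, given above. Xbp1, the transcription factor activated by splicing in ER stress, differed by 0.22 (adjusted p = 0.0318), Trib3 by 0.29 (adjusted p = 0.2) and Atf4 by 0.09 (adjusted p = 0.577).

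In the cytosol 4 of 29 heat shock proteins and co-chaperones were higher and 0 lower (median 0.12), against 1.18% higher over all genes. Hsph1, a nucleotide exchange factor of heat shock chaperones, was at 8.34, 8.55 and 9.02 at baseline and at 8.92, 9.08 and 9.68 in the deprived hearts, a difference of 0.59 ± 0.089 (adjusted p = 3.23e-06). The sleeping hearts were at 8.18, 8.33 and 8.48, their median under every baseline array, and deprived and sleeping hearts did not overlap and differed by 0.87 (adjusted p = 1.99e-10). Dnaja1, a J-domain co-chaperone, followed the same order, with 0.39 ± 0.093 in the deprived (adjusted p = 0.00509) and -0.28 in the sleeping hearts (adjusted p = 0.111), and its other probe set rose by 0.48. The co-chaperones St13 and Stip1 rose by 0.21 and 0.22. Single arrays weighed on these calls, that of Dnaja1 being lost when any of 6 of the 18 arrays was left out and that of Stip1 for any of 4. Dnaja1 did not pass with the run as a term (adjusted p = 0.0118), nor Stip1 without the 3 arrays that stood apart (adjusted p = 0.0128). With deprived arrays of the later run only, Dnaja1, Stip1 and St13 were at 0.24, 0.19 and 0.13 and did not pass (adjusted p = 0.226, 0.0565 and 0.0577). Against the sleeping animals 10 members of this list were higher and 0 lower (1.22% and 1.02% of all genes). The heat shock element, the blocks GAA, TTC and GAA each 2 bases apart on either strand, is held by 0.603% of promoters and by 4 of 25 list genes, among them Hsph1.

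Immediate early genes are switched on within minutes by growth factors, load or catecholamines. Of 27 measured members 6 rose and 0 fell (median 0.15), against 1.18% higher over all genes. Ccn2, a matricellular growth factor, did not overlap between the groups (9.91, 10.1 and 10.4 against 10.4, 10.8 and 11.1) and rose by 0.65 ± 0.093 (adjusted p = 8.36e-07), with -0.03 in the sleeping hearts. Maff, a small Maf factor, rose by 0.65 ± 0.12 (adjusted p = 0.00014). The Krüppel-like factors Klf10, Klf2 and Klf6 rose by 0.60, 0.34 and 0.25 (Klf2 with adjusted p = 0.0139 without the 3 arrays that stood apart), and Klf10 was 0.50 higher in the sleeping hearts too (adjusted p = 0.00808). The orphan nuclear receptor Nr4a3 rose by 0.77 ± 0.19 (adjusted p = 0.00984). The fastest members did not pass at this time, Fos differing by -0.13 (adjusted p = 0.694) and Egr1 by -0.23 (adjusted p = 0.449). Within the baseline run only 2 members passed.

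**Figure D3:**
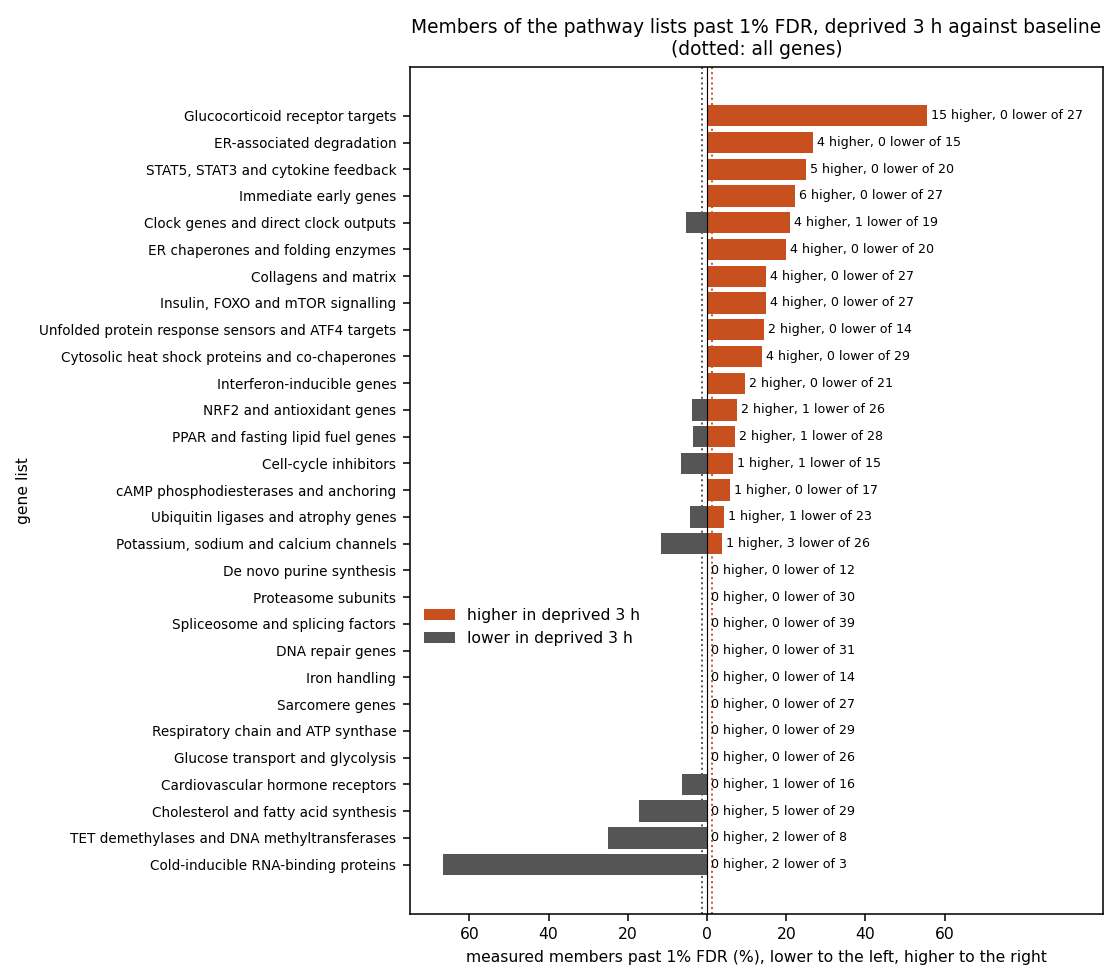
Share of the measured members of each pathway list past 1% FDR in hearts deprived for 3 h against baseline (horizontal axis, %, higher to the right and lower to the left), with the counts printed and the share of all genes dotted. By count, glucocorticoid receptor targets have the most members higher (15 of 27), cholesterol and fatty acid synthesis the most lower (5 of 29). By share, cold-inducible RNA-binding proteins have the most lower (2 of 3).

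Matrix genes rose in part. Of 27 collagens and matrix genes 4 were higher and 0 lower (median 0.15), against 1.18% higher over all genes. Timp4, the cardiac inhibitor of metalloproteinases, was at 8.23, 8.78 and 9.1 at baseline and at 9.17, 9.87 and 10.2 in the deprived hearts, without overlap (1.07 ± 0.14, adjusted p = 7.16e-08). Its relative Timp3 rose by 0.38 ± 0.054 (adjusted p = 1.04e-06). The other rises were of enzymes that modify collagen in the ER. P4ha1, a prolyl hydroxylase, rose by 0.52 ± 0.074 (adjusted p = 8.36e-07) and was at -0.24 in the sleeping hearts, and Plod1, a lysyl hydroxylase, rose by 0.22. No collagen chain passed, although Col4a1 and Col6a3 differed by 0.26 and 0.22.

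Cytokine and STAT targets gave 5 rises among 20 measured members and 0 falls (median 0.13), against 1.18% higher over all genes. The chemokine Ccl9 was at 6.47, 6.72 and 6.92 at baseline and at 7.06, 7.5 and 7.84 in the deprived hearts, without overlap (0.76 ± 0.098, adjusted p = 3.77e-08). Its neighbour in the family Ccl6 rose by 0.60 ± 0.11 (adjusted p = 0.000224), also without overlap. Osmr, the oncostatin M receptor, rose by 0.37 ± 0.049 (adjusted p = 1.21e-07), the kinase gene Pim3 by 0.52 and the repressor Bcl6 by 0.42. In the sleeping hearts Ccl9, Ccl6, Osmr and Bcl6 differed from baseline by -0.05 to 0.06. Ifi205 and Oas2 were the only 2 of 21 interferon-inducible genes to rise (0.99 and 0.45), and 0 fell, against 1.18% higher and 1.25% lower over all genes. Within the baseline run Ifi205 passed (adjusted p = 2.9e-05) and Oas2 did not (adjusted p = 0.077). Among 10 macrophage markers Cd163, the haemoglobin scavenger receptor, rose by 0.44 ± 0.092 (adjusted p = 0.00143), while the mean of the macrophage markers ranged from 8.02 to 8.23 in the deprived and from 7.77 to 8.27 in the baseline arrays. Their part in the chemokine rises was not tested.

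Genes of insulin and FOXO signalling gave 4 rises among 27 members and 0 falls (median 0.08), against 1.18% higher over all genes. Irs1, the adaptor of the insulin receptor, was at 8.39, 8.52 and 8.73 at baseline and at 8.72, 8.98 and 9.24 in the deprived hearts (0.43 ± 0.072, adjusted p = 2.54e-05). The pseudokinase gene Trib1, the transcription factor Foxo3 and the kinase inhibitor Pik3ip1 rose by 0.37, 0.34 and 0.37. Foxo3 and Pik3ip1 did not pass without the 3 arrays that stood apart (adjusted p = 0.0245 and 0.0635) or with the run as a term (adjusted p = 0.0108 and 0.0593), and the call of Pik3ip1 was lost when any of 10 of the 18 arrays was left out. Depp1, a FOXO target outside the list, rose by 0.98 ± 0.13 without overlap (adjusted p = 7.21e-08). Of 23 ubiquitin ligases and atrophy genes Fbxo32, the muscle atrophy ligase that FOXO factors induce, rose by 0.54 ± 0.067 (adjusted p = 2.25e-08), with 0.34 in the sleeping hearts (adjusted p = 0.0023). Fbxw7, the adaptor of a ligase for growth regulators, fell by 0.32 (adjusted p = 6.02e-06). A second, dim probe set of Fbxw7 differed by 0.11 (adjusted p = 0.617). Cdkn1a, an inhibitor of cyclin-dependent kinases, rose by 0.75 ± 0.14 (adjusted p = 0.000295) and was at -0.08 in the sleeping hearts.

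Fuel genes changed in single members. Of 28 PPAR and fasting genes 2 rose and 1 fell (median -0.00), against 1.18% higher and 1.25% lower over all genes. Angptl4, a secreted inhibitor of lipoprotein lipase, was at 5.65, 6.27 and 6.63 at baseline and spread widely over 6.14, 7.42 and 8.52 in the deprived hearts (1.18 ± 0.19, adjusted p = 1.18e-05). The sleeping hearts were also higher, by 0.95 (adjusted p = 0.0023), and deprived and sleeping hearts differed by 0.23 (adjusted p = 0.591). Pdk4, which closes the entry of glucose carbon into mitochondria, rose by 0.67 ± 0.13 (adjusted p = 0.000393), with 0.52 in the sleeping hearts (adjusted p = 0.0303). Ppargc1b, a coactivator of mitochondrial genes, fell by 0.41 (adjusted p = 3.01e-06) without overlap and was at -0.02 in the sleeping. None of 26 glucose transport and glycolysis genes, 29 of the respiratory chain or 27 of the sarcomere passed the moderated test of limma. An unadjusted p under 0.05 was found in 5, 3 and 2 of them, against 3370 of all 18820 genes.

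The clock was examined gene by gene, since 4 of its 19 measured members rose and 1 fell (median -0.03). Over all genes 1.18% rose and 1.25% fell. Per1 was at 6.32, 6.5 and 7.34 at baseline and at 6.95, 7.6 and 8.17 in the deprived hearts, with 5 of 8 above all baseline arrays (0.93 ± 0.16, adjusted p = 3.32e-05). Per2 was at 4.8, 5.32 and 5.57 and at 5.53, 5.95 and 6.69 (0.70 ± 0.11, adjusted p = 4.38e-06), and was at -0.04 in the sleeping hearts. Bhlhe40, a repressor that competes at E-boxes, rose by 0.43 ± 0.088 (adjusted p = 0.000898). Nr1d2, the repressor REV-ERB beta, moved alike in both states, by 0.65 in the deprived (adjusted p = 5.54e-10) and 0.65 in the sleeping hearts (adjusted p = 7.42e-10), with a difference between them of -0.01 ± 0.074. Cry1, a late repressor of the loop, fell by 0.42 in the deprived (adjusted p = 0.00103), and was at -0.63 in the sleeping hearts (adjusted p = 9.59e-07). Nfil3, a repressor of clock output, was at -0.23 in the deprived (adjusted p = 0.392) and at -0.64 in the sleeping hearts (adjusted p = 0.00105). The activators Arntl, Npas2 and Clock differed by -0.26, -0.22 and -0.12 and did not pass. Other members that did not pass were Per3 (0.27), Rora (0.16), Ciart (0.15), Usp2 (0.14), Csnk1d (0.00), Cry2 (-0.03), Csnk1e (-0.04), Tef (-0.06), Hlf (-0.13) and Bhlhe41 (-0.25).

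Deprived replicate 8 weighed on these values, and its clock genes go against its label of 3 h. It lay outside the range of the other 7 deprived arrays in 17 of 19 clock genes, and in 16 of those 17 it lay within the range of the animals deprived for 6 h. Its Arntl was 7.23, against 7.93 to 8.4 in the other deprived arrays at 3 h and 6.97 to 7.97 at 6 h. Its Per3 was 7.26, against 5.81 to 6.73 at 3 h and 6.55 to 7.52 at 6 h. Without it the differences from baseline were 0.84 for Per1 (adjusted p = 0.000346), 0.60 for Per2 (adjusted p = 6.72e-05), 0.57 for Nr1d2 (adjusted p = 5.64e-09), 0.40 for Bhlhe40 (adjusted p = 0.00402) and -0.37 for Cry1 (adjusted p = 0.00677), so that these 5 calls were kept. Arntl and Npas2 were then at -0.14 and -0.09. Without the 3 arrays that stood apart Bhlhe40 and Cry1 no longer passed (adjusted p = 0.0213 and 0.0216), whereas Rora, an activator of Arntl, then passed (0.23, adjusted p = 0.00189). Within the baseline run, which leaves this array out, Nr1d2 passed (0.60, adjusted p = 4.82e-06), whereas Per1 was at 0.80 (adjusted p = 0.0201) and Per2 at 0.43 (adjusted p = 0.111).

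The E-box CACGTG, which is its own reverse complement, is held by 7.15% of promoters (8.09% of genes) and by 5 of the 16 clock genes with a promoter in the table, Per1, Cry1, Tef, Bhlhe41 and Ciart. It is shown in capitals for Per1 and Cry1, which share it and moved in opposite directions.
Per1 (chr11:69098758-69098867, plus strand): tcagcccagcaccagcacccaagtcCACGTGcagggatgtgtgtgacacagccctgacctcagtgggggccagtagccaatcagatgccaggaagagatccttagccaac
Cry1 (chr10:85185055-85185139, minus strand): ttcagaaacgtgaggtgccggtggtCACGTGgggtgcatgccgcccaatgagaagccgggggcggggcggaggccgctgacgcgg
The Per1 stretch lies before 1 of the 2 starts that the table gives for the gene.

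Among the genes that fell, cholesterol and fatty acid synthesis was the list with the most members, 5 of 29 lower and 0 higher (median -0.13, 22 of 29 negative). Over all genes 1.25% fell and 9264 of 18820 were negative. The sleeping hearts had a list median of -0.12 with 0 members past the threshold, and 0 members differed between deprived and sleeping hearts. Sqle, the oxidase that commits squalene to sterols, was at 4.93, 5.35 and 5.7 at baseline and at 4.46, 4.56 and 5.02 in the deprived hearts, a difference of -0.67 ± 0.12 (adjusted p = 9.42e-05). Idi1, an isomerase of the isoprenoid route, fell by 0.61 (adjusted p = 2.16e-06), and its other probe set by 0.58. Msmo1, a sterol demethylation enzyme, fell by 0.40 without overlap (adjusted p = 0.000272). The desaturase genes Scd2 and Fads2 fell by 0.56 and 0.38, Scd2 not passing without the 3 arrays that stood apart (adjusted p = 0.0248). In the sleeping hearts the 5 genes were at -0.39 to -0.14. Hmgcs1 and Mvd were at -0.27 and -0.20 and did not pass (adjusted p = 0.0559 and 0.0973).

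Tet1, which oxidises methylcytosine in DNA, fell in all 3 of its probe sets. The brightest was at 7.86, 8.11 and 8.24 at baseline and at 7.38, 7.51 and 7.79 in the deprived hearts, without overlap (-0.58 ± 0.064, adjusted p = 5.48e-10), while the sleeping hearts were at 7.98, 8.12 and 8.27. The difference between deprived and sleeping hearts was -0.59 (adjusted p = 1.38e-09). The other probe sets were at -0.53 and -0.62. Dnmt3a, a DNA methyltransferase, was at -0.25 ± 0.051 (adjusted p = 0.000759). Of the 8 genes of this list 2 fell and 0 rose, against 1.25% lower over all genes, and Tet2 and Tet3 were at -0.08 and 0.05.

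The 3 measured cold-inducible RNA-binding proteins were at -0.40 (Cirbp), -0.29 (Rbm3) and -0.44 (Srsf5). A fall passed for Rbm3 (adjusted p = 0.00161, all 3 probe sets) and Srsf5 (adjusted p = 0.00194, both probe sets) and not for Cirbp (adjusted p = 0.0168). Rbm3 was at 10.7, 10.9 and 11 at baseline and at 10.3, 10.5 and 10.9 in the deprived hearts, where replicate 1 alone was within the baseline range. The sleeping hearts were at 0.24 for Cirbp, -0.00 for Rbm3 and 0.29 for Srsf5, and none passed (adjusted p = 0.286, 0.99 and 0.12). All 3 genes were lower in deprived than in sleeping hearts (-0.64, -0.29 and -0.73, adjusted p = 5.03e-05, 0.0027 and 3.43e-07). Without deprived replicate 5 Srsf5 no longer passed against baseline (adjusted p = 0.018), nor did Rbm3 without replicate 7 (adjusted p = 0.0111), and Cirbp passed without replicate 1 (adjusted p = 0.00442). With the run as a term neither Rbm3 nor Srsf5 passed (adjusted p = 0.0153 and 0.0255). Within the baseline run none of Cirbp, Rbm3 and Srsf5 passed (adjusted p = 0.189, 0.195 and 0.257).

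Channels and receptors changed in single genes. Kcna5, which carries the ultrarapid repolarising potassium current, was at 6, 6.16 and 6.44 at baseline and at 6.5, 6.77 and 7.17 in the deprived hearts, without overlap (0.64 ± 0.079, adjusted p = 1.77e-08). Of the 26 channel genes it was the only rise and 3 fell, against 1.18% higher and 1.25% lower over all genes. Kcnj5, a subunit of the acetylcholine-gated channel, fell by 0.24 (adjusted p = 0.00218), Gja1, the ventricular gap junction protein, by 0.21 (adjusted p = 0.00388) and Kcnh2, which carries the rapid delayed rectifier, by 0.24 (adjusted p = 0.00984). The call of Kcnh2 was lost when any of 15 of the 18 arrays was left out. Gja1 and Kcnj5 did not pass without deprived replicate 8 (adjusted p = 0.0267 and 0.0109). Agtr1a, the angiotensin receptor, fell by 0.30 (adjusted p = 0.000833) and was at 0.10 in the sleeping hearts. Pde7a, a cAMP phosphodiesterase, rose by 0.48 ± 0.056 without overlap (adjusted p = 1.82e-09).

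The largest falls were otherwise in genes of varied roles. Clec12a, an inhibitory lectin receptor of myeloid cells, was at 5.76, 5.96 and 6.18 at baseline and at 4.77, 5.21 and 5.41 in the deprived hearts, without overlap, and differed by -0.78 ± 0.19 (adjusted p = 0.00891). That call was lost when any of 15 of the 18 arrays was left out. Ccdc69, a coiled-coil protein, was at 8, 8.14 and 8.35 and at 7.24, 7.44 and 7.92 (-0.66 ± 0.072, adjusted p = 2.92e-10), with -0.42 in the sleeping hearts (adjusted p = 0.000166). Cited4, a transcriptional co-regulator of cardiac growth, was at -0.67 ± 0.1 (adjusted p = 3.39e-06) and at -0.47 in the sleeping hearts (adjusted p = 0.00544). Rel, a subunit of NF-kappa-B, did not overlap (9.12, 9.23 and 9.36 against 8.43, 8.63 and 9.06) and was at -0.56 ± 0.071 (adjusted p = 3.24e-08). Scin, which severs actin filaments, Pla2g4e, a phospholipase, and Sv2a, a vesicle glycoprotein, fell by 0.56, 0.55 and 0.53 and were at 0.09, 0.05 and 0.04 in the sleeping hearts. Ccnjl, Fam78a and the glutathione transferase Gsta3 fell by 0.59, 0.58 and 0.56.

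Some genes moved in the sleeping hearts as well, at the clock time that both groups share. Klhl38, a muscle protein of the Kelch family, was at 9.25, 9.36 and 9.57 at baseline, at 9.61, 9.89 and 10.1 in the sleeping and at 10, 10.2 and 10.5 in the deprived hearts. Both groups were above all baseline arrays, by 0.52 (adjusted p = 1.14e-08) and 0.82 (adjusted p = 1.87e-16), and they differed from each other by 0.30 (adjusted p = 0.00232). Txnip, an inhibitor of thioredoxin that responds to glucose, rose by 0.80 in the deprived (adjusted p = 1.36e-08) and 0.64 in the sleeping hearts (adjusted p = 1.74e-05). Wee1, a kinase that holds back mitosis and is driven by the clock, was at -0.45 and -0.46, and Rtn4r, a receptor for myelin inhibitors, at -0.50 and -0.57. For Wee1 and Rtn4r the groups differed by 0.01 and 0.07 (adjusted p = 0.961 and 0.805).

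Over the later hours of deprivation some of these genes returned toward baseline and others rose further. The 6 h groups lie in the same runs of title numbers as the 3 h groups, whereas the 9 and 12 h groups lie in other runs, so that time and run cannot be told apart for them. Sdf2l1 was 0.86 above baseline at 3 h, 0.50 at 6 h, 0.07 at 9 h and -0.29 at 12 h. Manf took the values 0.60, 0.31, -0.14 and -0.47 at the same times, and Hsph1 0.59, 0.25, -0.00 and -0.11. The step from 3 to 6 h passed for none of these 3 genes in the moderated test of limma (adjusted p = 0.261, 0.198 and 0.0255). It passed for Stip1 (-0.22, adjusted p = 0.00801) and Irs1 (-0.32, adjusted p = 0.00867). Both were named for their rise at 3 h, in the same arrays, so part of their return can come from that choice.

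Clock genes moved further in both directions, over hours in which time of day changed as well. Sleeping hearts of these later hours were not set beside them, so the part of deprivation was not tested. Per1 reached 1.64 at 6 h and 2.36 at 12 h, and was 0.70 higher at 6 h than at 3 h (adjusted p = 0.00808). Per2 reached 1.27 and 2.59, 0.57 higher at 6 h than at 3 h (adjusted p = 0.0013). Arntl, not past the threshold at 3 h, was at -1.03 at 6 h and -3.40 at 12 h, with a step from 3 to 6 h of -0.77 (adjusted p = 2.27e-06). Zbtb16 was at 1.70 at 6 h, close to its 1.68 at 3 h (adjusted p of the difference 0.947), and at 2.28 at 12 h. Tet1 was at -0.66, -0.50 and -0.67 at 6, 9 and 12 h. Srsf5 was at 0.00 at 6 h, 0.45 above its level at 3 h (adjusted p = 0.00569). Between 6 and 3 h of deprivation 0.755% of genes differed in all, 61 higher (0.324%) and 81 lower (0.43%) at 6 h. Since the clock genes of deprived replicate 8 go against its label, the step was also fitted without it, an alternative chosen after seeing the data, and 0.659% of genes were then higher and 0.903% lower at 6 h. Without it the step was 0.80 for Per1 (adjusted p = 0.00158), 0.67 for Per2 (adjusted p = 2.44e-05) and -0.89 for Arntl (adjusted p = 1.29e-09). Wider steps in clock genes follow from the choice of that array and are no check of them.

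**Figure D4:**
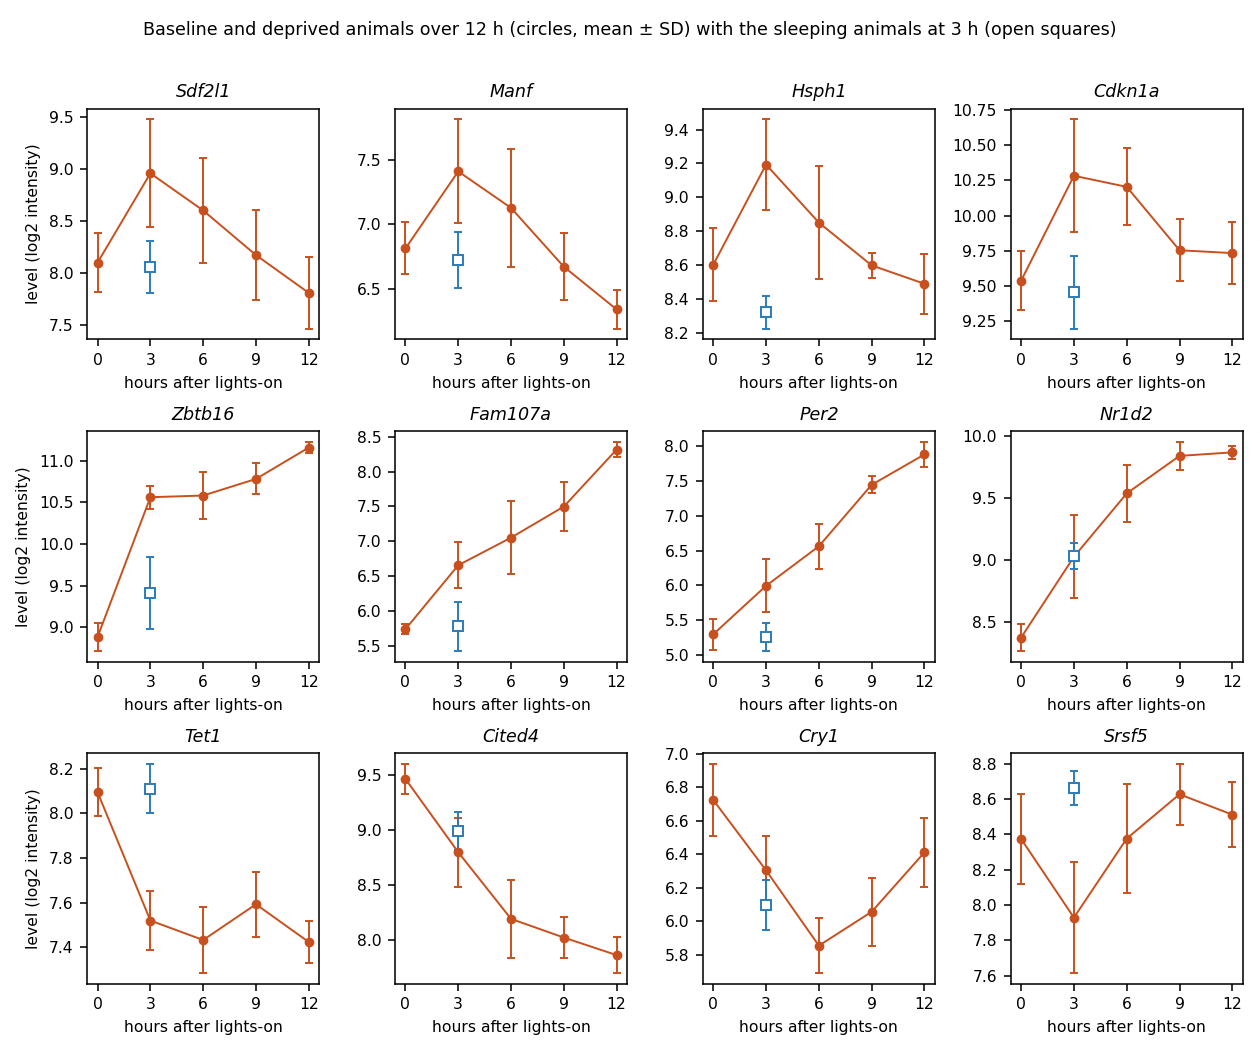
Level (log2 intensity, mean ± SD) of 12 genes at baseline and after 3, 6, 9 and 12 h of deprivation (circles, horizontal axis in hours after lights-on) with the sleeping hearts at 3 h (open squares). Sdf2l1, Manf and Hsph1 are highest at 3 h, and Per2 and Fam107a are highest at 12 h.

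Lists with 0 members past 1% were 8 of the 29 pathway lists. They included DNA repair (31 measured), splicing factors (39), proteasome subunits (30), purine synthesis (12) and iron handling (14), with medians of -0.03, 0.02, -0.03, -0.06 and -0.04. Of their members 3, 8, 4, 3 and 1 had an unadjusted p under 0.05 by limma, against 3370 of all 18820 genes. Among 14 lists of cell type markers 12 had 0 members past 1%, where 2.43% of all genes passed. The lists are short, so few calls are met in them at the share of all genes. Flt1, 1 of 12 endothelial markers measured, passed (0.18, adjusted p = 0.00193), as did Cd163, 1 of 10 macrophage markers. Whether the cell composition changed was not tested. Flt1 no longer passed without deprived replicate 7 (adjusted p = 0.0118) or without the 3 arrays that stood apart (adjusted p = 0.0189). The endothelial markers together ranged from 9.66 to 9.82 at baseline and from 9.78 to 9.9 in the deprived hearts. Skeletal muscle markers had a list median of -0.52 with 12 of 12 negative, and their group medians were 5.01 at baseline and 4.998 in the deprived, baseline replicate 2 being the high array.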

How the data were processed

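Hearts were assayed on Affymetrix Mouse Gene 1.0 ST arrays, 1 per animal. The authors normalised them with RMA, per the labels, and deposited 1 table of log2 values for 80 arrays and 35556 probe sets. The deposited values have lost their decimal points and are therefore treated as a score column, from which the log2 values were restored by placing the point after 2 digits where a value starts with 10 to 13 and after 1 otherwise. That gave 2 leading digits in 173798 of 2844480 values and a range of 1.38 to 13.8, and 1 ambiguous value was read with its probe set. The genome build is not given in the sources used here.

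Probe sets were named from the platform annotation, 21218 with 1 symbol, 1881 with several and 12457 with none. A symbol with several probe sets is represented by the one of highest mean. The 9 group means of all 80 arrays were fitted with limma (version 3.58.1, R 4.3.3), and contrasts were moderated and adjusted by Benjamini-Hochberg over all 35556 probe sets, with 1% as threshold. Standard errors and adjusted p-values in the text are from that fit. The script was tested on simulated data. The number of arrays limits the precision.

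Named genes were, among those past the threshold, the 12 higher and 12 lower with the largest difference, the 6 in each direction with the largest difference that also passed against sleeping animals or in the sleeping animals, up to 4 members of each list by p, and all members of the clock and cold-inducible lists. Other members named were chosen after their values were seen. The 43 lists hold 859 genes, 782 of them measured. The members and lists were chosen with earlier results of these data known. Promoters came from RefSeq. Alternatives were other sets of arrays, run as a term, other normalisations, array weights, other shrinkage, a filter on dim probe sets, and each array left out in turn.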

Additional observations from a re-analysis of the deposited data

Results flagged for a closer look

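Single arrays lay far from the rest of their group in 18 of 244 checks (7.38%), where a gap of this size is met by chance in about 5%, or 1 in 20. The check asks whether the gap between an extreme array and its neighbour takes more than a set share of the group's range. Deprived replicate 8 had 4 of them, with Arntl at 7.23 (others 7.93 to 8.4), Npas2 at 6.94 (7.7 to 8.24), a liver marker mean of 7.59 (5.11 to 5.94) and a lymphocyte marker mean of 5.84 (4.56 to 4.85). Deprived replicate 5 was low for Srsf5 (7.22, others 7.88 to 8.25) and Rora (7.89, others 8.26 to 8.56). Deprived replicate 1 was high for Rbm3 (10.9, others 10.3 to 10.6) and for the smooth muscle and pericyte marker mean (9.76, others 9.46 to 9.6).

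At baseline replicate 5 was high for Per1 (7.34), Kcna5 (6.44) and Slc10a6 (6.13), and replicate 6 for Pdk4 (11.6) and Sv2a (6.54). Replicate 9 was low for Cry1 (6.19) and St13 (9.26), and replicate 4 for Scin (5.61). Replicate 2 was high for the skeletal muscle marker mean (8.45) and replicate 3 for the lymphocyte marker mean (5.23).

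The difference from baseline was not the same after 3 and 6 h of deprivation for 19 of the genes named, as tested by limma on the difference itself at 1% FDR. Time of day differs between these groups as well. Over all genes 0.755% differed between 6 and 3 h. Many genes were named for their 3 h values, and the same 3 h arrays enter the step. Part of a return toward baseline can therefore come from that choice. At 6 h the level was higher than at 3 h for Per3 (0.78), Per1 (0.70), Per2 (0.57), Slc10a6 (0.55), Nr1d2 (0.51), Tef (0.45), Srsf5 (0.45), Sult1a1 (0.42), Usp2 (0.38), Bhlhe41 (0.35) and Klf9 (0.32). It was lower for Nfil3 (-0.98), Npas2 (-0.85), Arntl (-0.77), Cited4 (-0.60), Fam78a (-0.50), Cry1 (-0.45), Irs1 (-0.32) and Stip1 (-0.22). Deprived replicate 8, which is among the arrays at 3 h, lay outside the other 7 in 17 of 19 clock genes and in 16 of those within the range of the animals deprived for 6 h, so its clock genes go against its label, and both the 3 h values and the differences between 3 and 6 h include it. Without it all 19 genes passed in the same direction, with 0.90 for Per3, -1.14 for Nfil3 and -0.97 for Npas2. The array was singled out by clock genes in the 6 h range, so leaving it out widens their steps by that choice. The fit without it is therefore no check of the clock gene steps.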

How the results depend on the processing

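The number of calls moved with the arrays used to estimate the spread and with single arrays. No named gene called changed sign in any of 32 alternatives. Other shrinkage, the dim filter, 1 probe set per symbol and 5% FDR leave each difference as it is, so no sign could change there. The same holds for the fits on only the 18 arrays of both groups, without or with the sleeping arrays at 3 h. Of the rest, 18 leave out only 1 array each. A fit on only the 18 arrays of both groups called 0.574% of genes higher and 0.356% lower (1.18% and 1.25% with all 80 arrays), with 3 cholesterol and fatty acid synthesis genes lower. It kept 36.5% of the calls made with all arrays, and 29 of 83 named genes called were lost. A fit on baseline, sleeping and deprived arrays at 3 h called 0.781% lower, and 10 of the 83 were lost. Within the baseline run 0.414% were higher and 0.345% lower, with 2 immediate early genes and 6 glucocorticoid receptor targets higher and 3 cholesterol and fatty acid synthesis genes lower. The losses were largest in this run, at 38 of the 83 named genes. With deprived arrays of the later run only, in a fit that kept the other groups for the spread, 1.65% were higher and 1.83% lower. There 18 of 83 named genes called were lost. With the run as a term 0.845% were higher and 1.05% lower, and 9 of the 83 were lost (Dnaja1, Pik3ip1, Foxo3, Slc25a34, Kcnh2, Rbm3, Srsf5, Rtn4r and Clec12a). Without the arrays that stood apart (chosen after seeing the data) 0.797% were lower, and 19 of the 83 were lost. At 5% FDR 2.21% were higher and 2.7% lower. Leaving out each array in turn gave 0.887% to 1.28% of genes higher and 0.808% to 1.29% lower, the fewest lower without deprived replicate 7, with 13 to 16 glucocorticoid receptor targets, 5 to 6 immediate early genes, 5 to 6 cholesterol and fatty acid synthesis genes and 4 to 6 cytokine and STAT targets. Of these 83 genes, 71 were called in all 18 of these. Centring the arrays on their medians shifted the median difference by 0.02 and raised the share of calls that were higher from 48.7% to 56.3%. The cause was not tested. No paired analysis was possible because the labels give no replicate numbers that the groups share.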
